A study of Rattus norvegicus with 22 samples.

Results

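The genes of the AMPA receptor subunits (Gria1 to Gria4) and of the kainate receptor subunits (Grik1 to Grik5) were followed through traumatic brain injury (TBI) in the rat hippocampus. The 9 genes were taken by name from a table of read counts per gene. All 9 were present among its 17172 gene rows, and all 9 were among the 12875 genes with enough reads to be tested. The names GluA1 to GluA4 and GluK1 to GluK5 denote the proteins.

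AMPA and kainate receptors are glutamate-gated ion channels, each built from several subunits. AMPA receptors carry most of the fast excitatory current at hippocampal synapses, and the GluA2 subunit, encoded by Gria2, makes a channel nearly impermeable to calcium once its RNA has been edited. Kainate receptors modulate transmission on both sides of the synapse, most prominently at the mossy fiber synapses that dentate granule cells make onto CA3 pyramidal neurons. GluK1 to GluK3 can form channels by themselves, whereas GluK4 and GluK5, the high-affinity subunits, need a partner from that group.

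RNA-seq libraries were made from the ipsilateral (right) hippocampus of adult male Sprague-Dawley rats. The groups were sham day 1 (n = 2), TBI day 1 (n = 4), sham day 14 (n = 4) and TBI day 14 (n = 4), where TBI is a moderate lateral fluid percussion injury, a pressure pulse onto the exposed dura. Sham rats were anesthetized and opened in the same way without the pulse, so all 4 groups share the craniectomy and isoflurane. Levels are given as CPM, the counts of a gene scaled to the size of its library, after TMM normalization. They are not per length of transcript, so each gene was compared between samples and not with another gene.

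Total counts per sample ranged from 15065540 to 23743703. CA1, CA3 and dentate granule markers were detected in every group, with summed levels of 253 to 1117 CPM, 64.9 to 209 CPM and 9.39 to 111 CPM, respectively. A set of 3 libraries stood apart in the summed level of 10 markers of the choroid plexus, the epithelium next to the hippocampus that makes cerebrospinal fluid. The sum was 10531 CPM in sham day 1 replicate 1, 8505 CPM in TBI day 14 replicate 3 and 2022 CPM in TBI day 14 replicate 2, against 112 to 239 CPM in the other libraries. Otx2, among these markers, was at 0 in all 14 libraries. Of the 9 subunit genes, 8 were lower in sham day 1 replicate 1 than in replicate 2, the exception being Grik5. The log2 differences (replicate 1 minus replicate 2) ran from −1.01 for Gria1 to 0.31 for Grik5, and the median over all tested genes was 0.028. The share of all genes lower in replicate 1 was not computed. With only 2 rats in sham day 1, the spread between rats was estimated over all 4 groups at once.

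The reference promoter table (RefSeq, build GRCr8) held 6 of the 9 genes, Gria4 and Grik1 to Grik5. The 250 bases before the annotated start are shown for Grik4, Grik2 and Grik5, because these kainate subunit genes took different courses at day 1, with the larger drop in Grik4, a smaller one in Grik2 and no call in Grik5. They lie at chr8:52102064-52102313, chr20:54415284-54415533 and chr1:89794910-89795159, each on the minus strand, and are written 5′ to 3′ with matches to the motifs searched in capitals.
Grik4: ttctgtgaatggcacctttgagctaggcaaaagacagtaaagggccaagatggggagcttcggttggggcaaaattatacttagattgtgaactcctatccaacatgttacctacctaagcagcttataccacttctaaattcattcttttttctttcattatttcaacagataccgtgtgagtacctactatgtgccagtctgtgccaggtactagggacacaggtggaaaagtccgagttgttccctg
Grik2: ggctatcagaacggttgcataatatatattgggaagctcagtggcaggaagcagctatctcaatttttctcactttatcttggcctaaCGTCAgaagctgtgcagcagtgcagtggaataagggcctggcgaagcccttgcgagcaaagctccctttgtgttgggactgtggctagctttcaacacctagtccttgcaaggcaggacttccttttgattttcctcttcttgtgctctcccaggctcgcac
Grik5: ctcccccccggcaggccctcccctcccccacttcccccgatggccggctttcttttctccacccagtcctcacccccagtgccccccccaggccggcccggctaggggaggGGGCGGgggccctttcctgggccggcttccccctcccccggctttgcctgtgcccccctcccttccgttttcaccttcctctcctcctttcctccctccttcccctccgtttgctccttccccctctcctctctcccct
The 4 motifs searched on both strands were the cAMP response element TGACGTCA, its half-site TGACG (contained in the full element), the AP-1 site TGANTCA and the GC box GGGCGG. Grik2 held 1 half-site, read on the opposite strand, Grik5 held 1 GC box and Grik4 held no match. Among 33469 promoter windows of the same length, 18.2% held the half-site, 30.5% the GC box, 6.34% the AP-1 site and 1.59% the full element. The GC content was 43.2% for Grik4, 49.6% for Grik2 and 70.8% for Grik5, beside a median of 51.2% over all windows. In the windows not printed, GC content was 59.6% for Gria4, 57.6% for Grik1 and 81.6% for Grik3, and the matches there were 5 GC boxes in Grik3. These are descriptions of letters in a window, and binding was not measured.

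The comparison of TBI day 1 with sham day 1 asks what the injury did acutely. Of the 9 subunit genes, 5 fell (Gria1, Gria2, Gria3, Grik2 and Grik4), 0 rose and 4 did not pass the test (Gria4, Grik1, Grik3 and Grik5), by edgeR's quasi-likelihood test with a Benjamini-Hochberg adjusted p under 0.05 over all 12875 genes. Among all genes tested, 7.93% fell and 11.2% rose in this comparison. The median log2 fold change was −0.59 over the 9 genes and −0.015 over all genes. Fewer neurons and less RNA per neuron cannot be told apart in bulk tissue.

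Gria1 encodes GluA1, the subunit most closely tied to activity-dependent delivery of receptors to synapses. Its level was 313 and 632 CPM in sham day 1. In TBI day 1 it was 75.1, 205, 195 and 331 CPM, so 1 of the 4 injured rats reached into the sham range, and the value of replicate 1 was the lowest of all 14 libraries. The log2 fold change was −1.23 (SE 0.38, edgeR adjusted p = 0.0340). Gria2 was 754 and 1493 CPM in sham day 1 and 498, 626, 641 and 854 CPM in TBI day 1. Again replicate 4 of the injured rats overlapped the lower sham rat, and the log2 fold change was −0.78 (SE 0.23, edgeR adjusted p = 0.0284).

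The other AMPA receptor genes moved less. Gria3 was 317 and 467 CPM in sham day 1 and 268, 221, 260 and 338 CPM in TBI day 1, with a log2 fold change of −0.53 (SE 0.17, edgeR adjusted p = 0.0453). Its groups overlapped through TBI replicate 4, and limma-voom did not call it (adjusted p = 0.0528). Gria4, which in the hippocampus is mostly known from interneurons, was 80.4 and 102 CPM in sham day 1 and 60.6, 78.3, 63.3 and 73.5 CPM in TBI day 1. All 4 injured values lay below both sham values, yet the log2 fold change of −0.41 (SE 0.14) missed the threshold (edgeR adjusted p = 0.0588).

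Among kainate receptor genes the clearest difference was in Grik4. Its level was 114 and 141 CPM in sham day 1 and 36.9, 61.1, 73.9 and 51.5 CPM in TBI day 1, with no overlap. The log2 fold change was −1.19 (SE 0.19, edgeR adjusted p = 0.000754), so that the level dropped by 56.1%. GluK4 is concentrated in CA3 pyramidal neurons and dentate granule cells. CA3 markers summed to 144 to 152 CPM in sham day 1 and 64.9 to 122 CPM in TBI day 1, and 1 of 3 tested fell. Dentate granule markers summed to 29.6 and 111 CPM in sham day 1 and 9.39 to 38.4 CPM in TBI day 1, and 1 of 2 tested fell, Prox1 (log2 fold change −1.66, edgeR adjusted p = 0.0334). The other, Lct, was at 0.50 (edgeR adjusted p = 0.697), with low means of 0.44 CPM in sham day 1 and 0.62 CPM in TBI day 1. Of 3 CA1 markers tested 0 were called, with a median log2 fold change of −0.072. CA1 markers summed to 672 and 253 CPM in sham day 1 and 308 to 623 CPM in TBI day 1. All injured rats thus lay between the 2 sham rats, which were far apart. The part of these markers in the Grik4 result was not tested.

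Grik2, which encodes the common channel-forming subunit GluK2, was 37.4 and 63.6 CPM in sham day 1 and 35.6, 34.9, 26.8 and 36.9 CPM in TBI day 1. The groups did not overlap, although the highest injured rat came within 1 CPM of the lower sham rat, and the log2 fold change was −0.59 (SE 0.18, edgeR adjusted p = 0.0308). Grik5 was 261 and 211 CPM in sham day 1 and 319, 266, 206 and 199 CPM in TBI day 1. The values interleaved, and the log2 fold change was 0.068 (95% interval −0.34 to 0.48, edgeR adjusted p = 0.834).

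The remaining kainate genes, both at low counts, varied between rats. Grik1, known in the hippocampus mainly from interneurons, was 19.0 and 26.7 CPM in sham day 1 and 11.6 to 23.9 CPM in TBI day 1, with a log2 fold change of −0.45 (SE 0.24, edgeR adjusted p = 0.194). Grik3 was 14.1 and 27.8 CPM in sham day 1 and 5.13 to 16.8 CPM in TBI day 1, with a log2 fold change of −0.96 (SE 0.37, edgeR adjusted p = 0.0815). Every injured rat lay below both sham rats in 3 of the 9 genes (Gria4, Grik2 and Grik4), beside 14.1% of all genes.

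**Figure D1:**
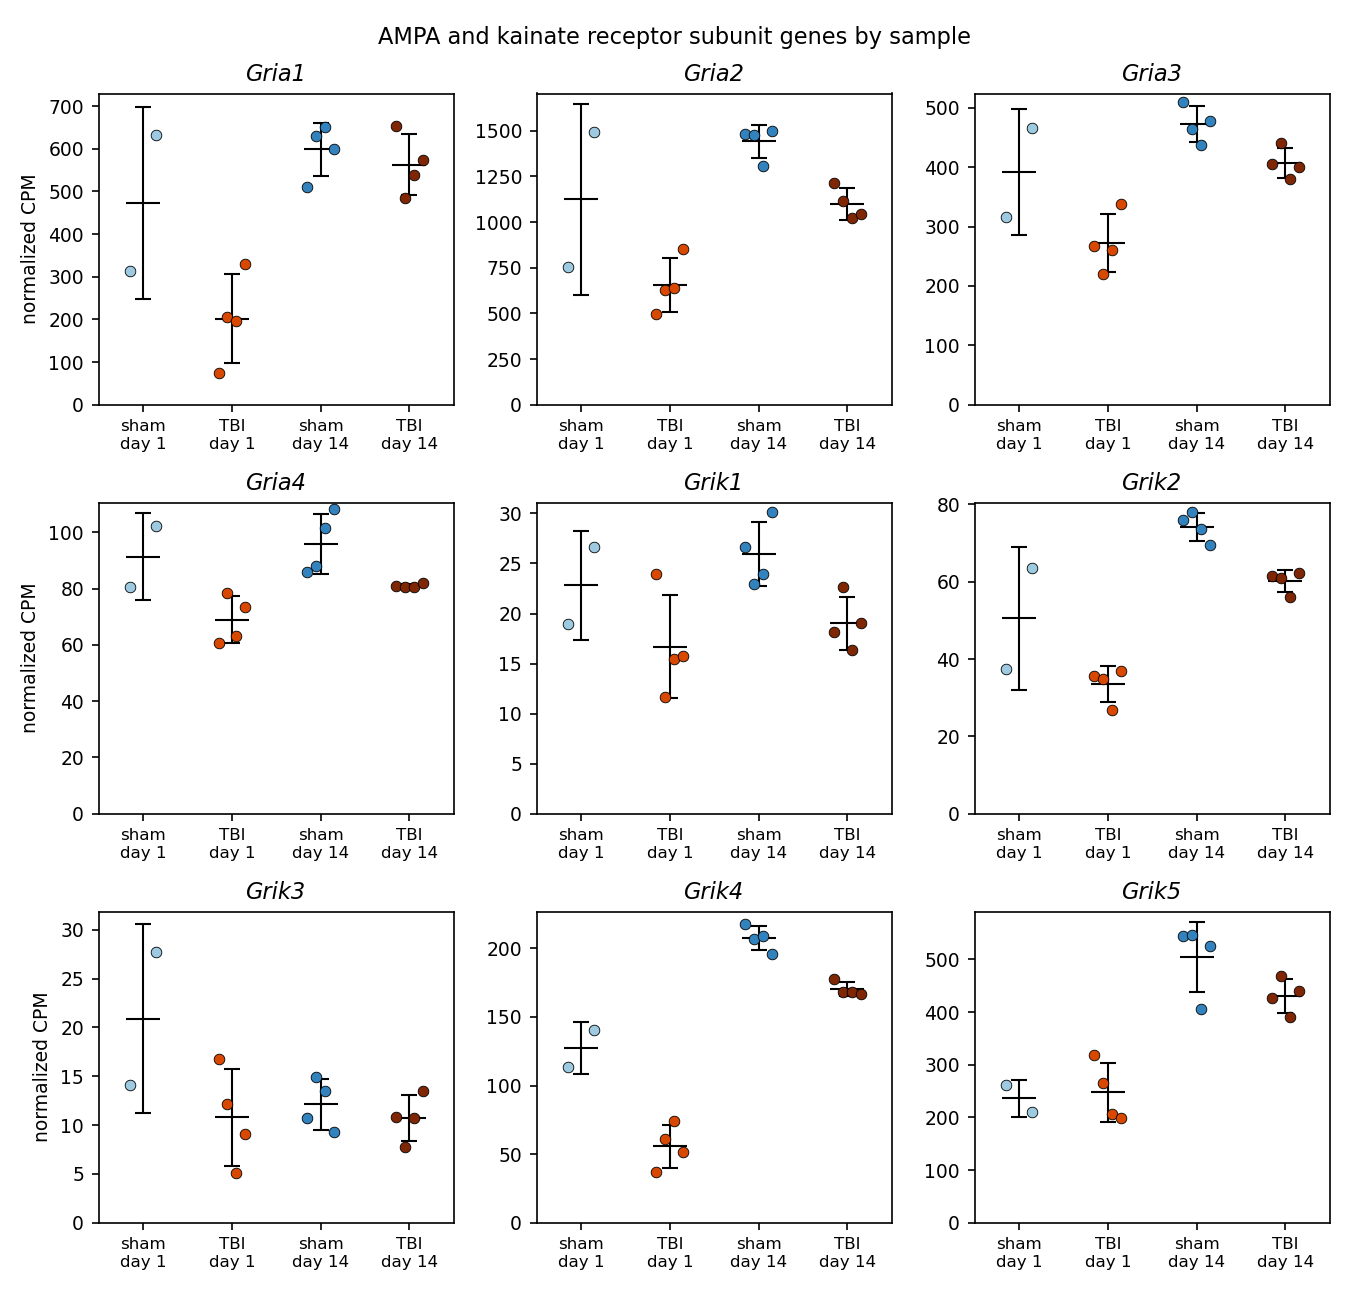
Normalized CPM (vertical axes, linear, from 0) of the 9 subunit genes in each of the 14 samples, in 4 groups on the horizontal axes. Points are rats, long bars means and whiskers SD. Grik4 has no overlap between sham day 1 and TBI day 1, whereas the Grik5 values of those groups interleave and both lie below all day 14 values.

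These calls depended on single rats and on the pair of sham day 1 samples. Without TBI day 1 replicate 3, 1 of the 9 genes fell, beside 878 of 12845 genes. Without TBI day 1 replicate 2, 3 fell, beside 824 of 12834. With only the day 1 samples in the fit, 1 fell, Grik4 (log2 fold change −1.16, edgeR adjusted p = 0.0364), beside 94 of 12720 genes, so calls were lost over all genes too. Grik4 was the subunit gene called whichever of the 14 samples was left out, with log2 fold changes from −1.35 to −1.03. Without sham day 1 replicate 2, the log2 fold change was −0.63 for Gria1, −0.20 for Gria2, −0.22 for Gria3 and −0.16 for Grik2, and none of these passed the test. Without the 3 libraries high in choroid plexus markers, an alternative chosen after seeing the data, 7 of the 9 genes fell, Grik1 and Grik5 being the others.

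Neuronal transcripts moved in the same libraries. The 10 neuron markers summed to 9689 and 13065 CPM in sham day 1 and to 4743 to 8203 CPM in TBI day 1, with 2 of 10 called lower and a median log2 fold change of −0.72. The sham day 1 pair was high, however, beside 6107 to 8754 CPM in sham day 14, a range that overlaps that of TBI day 1. Between the sham groups, 3 of the 10 were called higher at day 1 and 0 lower, beside 11.3% and 7.88% of all genes. Eno2, among these markers, never exceeded 14 reads and was at 0 in 1 library. Interneuron markers summed to 551 and 764 CPM in sham day 1 and to 321 to 470 CPM in TBI day 1, with 4 of 7 tested called lower and Npy at 0 in all 14 libraries. Of the glial lists, 2 of 6 microglia markers rose and 1 fell. Of 5 astrocyte markers 1 rose, Gfap, and 1 fell, Gjb6 (log2 fold change −1.17), with a median of 0.12 over the 5. The astrocyte sum was 4322 and 2731 CPM in sham day 1 and 9491 to 15545 CPM in TBI day 1. Gfap alone had means of 1255 and 10740 CPM in these groups. When libraries were scaled to the summed neuron markers instead, the median log2 fold change of all genes rose from −0.015 to 0.69. Beside 93 of 12875 genes called lower and 3901 higher, 0 of the 9 subunit genes were then called. On that scale 4 were negative and 5 positive, with −0.59 for Gria1, −0.53 for Grik4 (edgeR adjusted p = 0.0532), 0.22 for Gria3 and 0.19 for Grik2. Relative to the median of all genes on that scale, 8 of the 9 were lower, Gria1 at −1.27 and Grik4 at −1.22, with Grik5 at 0.13. Taking off that median removes the shift common to all genes. These values therefore lie close to those of the main fit and are not a separate check.

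The comparison of TBI day 14 with sham day 14 asks what remained at the later time. No subunit gene passed the test (0 of 9 by edgeR), and 1, Grik1, had a lower level at an unadjusted p under 0.05, beside 4.28% of all genes. DESeq2 and limma-voom also called 0. Over all genes, 0.365% fell and 4.07% rose in this comparison. All 9 log2 fold changes were negative, from −0.45 for Grik1 to −0.088 for Gria1, beside 55.8% of all genes with a negative value. Their median was −0.24, against −0.031 over all genes. With libraries scaled to the neuron markers, the median of all genes moved by 0.21 to 0.18. All 9 subunit genes lay below that median, although Gria1 (0.13) and Grik3 (0.048) were then above 0. Values relative to that median again stay near the main fit and are not a separate check.

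The separation of individual values was nonetheless present at day 14. Every injured rat lay below every sham rat in 5 of the 9 genes (Gria2, Gria4, Grik1, Grik2 and Grik4), beside 5.86% of all genes. Gria2 was 1483, 1476, 1308 and 1497 CPM in sham day 14 and 1215, 1115, 1022 and 1044 CPM in TBI day 14. These do not overlap, and the log2 fold change was −0.39 (SE 0.19, edgeR adjusted p = 0.414). A fit on the day 14 samples alone called Gria2 (log2 fold change −0.35, edgeR adjusted p = 0.0298) and no other subunit gene, beside 205 of 12231 genes called lower.

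Grik4 was 218, 207, 209 and 196 CPM in sham day 14 and 178, 168, 168 and 167 CPM in TBI day 14. Both groups were tight and did not overlap, with a log2 fold change of −0.29 (SE 0.16, edgeR adjusted p = 0.527). That SE rests on the spread over all 4 groups and not on that of day 14 alone. The SD of log2 CPM was 0.063 in sham day 14 and 0.043 in TBI day 14, against 0.22 in sham day 1 and 0.42 in TBI day 1. Grik2 was 76.0, 77.9, 73.6 and 69.6 CPM in sham day 14 and 61.4, 60.9, 56.0 and 62.3 CPM in TBI day 14, a log2 fold change of −0.30 (SE 0.15, edgeR adjusted p = 0.399). Grik1 was 23.0 to 30.2 CPM in sham day 14 and 16.3 to 22.6 CPM in TBI day 14, and Gria4 was 85.9 to 108 CPM and 80.5 to 82.0 CPM.

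Gria1, by contrast, overlapped throughout, at 511, 631, 651 and 600 CPM in sham day 14 and 653, 485, 538 and 575 CPM in TBI day 14. Its log2 fold change was −0.088 (95% interval −0.77 to 0.59). Gria3 was 438 to 510 CPM in sham day 14 and 380 to 440 CPM in TBI day 14, Grik5 was 406 to 545 CPM and 391 to 469 CPM, and Grik3 was 9.25 to 14.96 CPM and 7.73 to 13.5 CPM, all with overlap. Interneuron markers summed to 592 to 725 CPM in sham day 14 and 510 to 532 CPM in TBI day 14, whereas the ranges of the summed neuron markers overlapped. All 6 microglia markers rose at day 14, their sum being 311 to 394 CPM in sham and 745 to 1367 CPM in TBI. Of 5 astrocyte markers 1 rose, Gfap, and the sum was 2834 to 3708 CPM in sham and 6123 to 9608 CPM in TBI. Their part in the day 14 values was not tested.

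**Figure D2:**
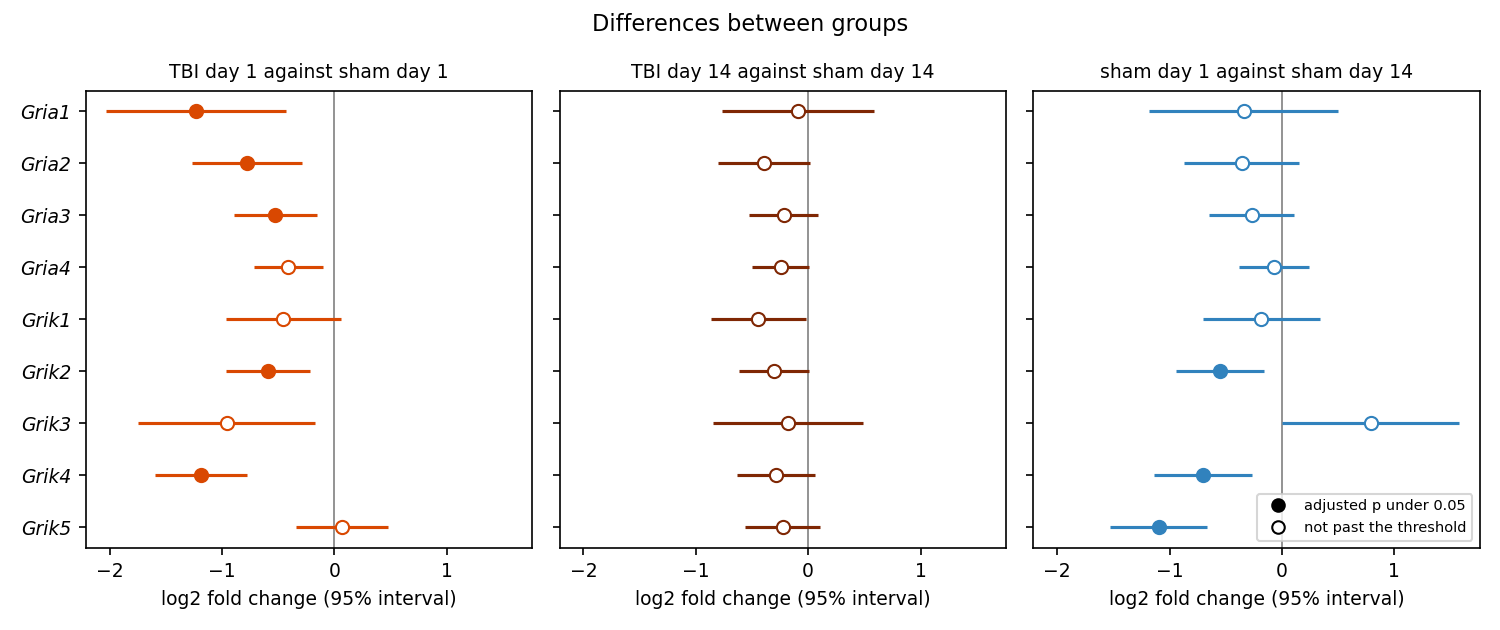
Log2 fold changes (horizontal axes) of the 9 subunit genes (vertical axis) for TBI against sham at day 1 and at day 14 and for sham day 1 against sham day 14, from the edgeR fit over 14 samples. Lines are 95% intervals and filled points have an adjusted p under 0.05. In the left panel 5 genes are filled, in the middle panel 0, and in the right panel 3. Scaled to neuron markers, no gene of the left panel is called, beside 93 of 12875 genes lower and 3901 higher. Gria3, Gria4, Grik1 and Grik2 turn positive on that scale, where the median of all genes is 0.69.

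Whether the injury effect differed between the days was tested directly as the difference of the day 1 and day 14 effects. None of the 9 subunit genes passed (0 by edgeR, beside 1.44% of all genes called lower and 2.24% higher), 2 were lower at an unadjusted p under 0.05 (8.8% of all genes), limma-voom called 0 and DESeq2 called 1. Grik4 had a difference of −0.90 on the log2 scale (SE 0.25, edgeR adjusted p = 0.0630, DESeq2 adjusted p = 0.0162). It passed in edgeR without TBI day 1 replicate 1 (−0.75) or without replicate 3 (−1.06). Gria1 had a difference of −1.14 (SE 0.50, edgeR adjusted p = 0.220). For Grik1 the difference was −0.0064 (95% interval −0.67 to 0.66).

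The sham groups differed from each other in some of these genes, a comparison in which day and any batch cannot be told apart. Between sham day 1 and sham day 14, 3 of the 9 were lower at day 1 and 0 higher, beside 7.88% of all genes lower and 11.3% higher. Grik5, which did not pass the test of injury at day 1, was 211 and 261 CPM in sham day 1 against 543, 545, 406 and 525 CPM in sham day 14. No value overlapped, and the log2 fold change was −1.10 (SE 0.20, edgeR adjusted p = 0.00377). Grik4 was lower by the same comparison, with a log2 fold change of −0.71 (SE 0.20, edgeR adjusted p = 0.0277), and so was Grik2 (−0.55, SE 0.18, edgeR adjusted p = 0.0473).

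With each sample left out in turn, the Grik5 call remained in all 14 fits, the Grik4 call in 9 and the Grik2 call in 4. Without sham day 1 replicate 1, the library with the highest choroid plexus level, 1 gene was called, and Grik4 stood at −0.56 and Grik2 at −0.22. Leaving out sham day 14 replicate 1, 2 or 4 also left 1. The 4 AMPA receptor genes did not pass, at −0.36 for Gria2 to −0.069 for Gria4, and Gria1, Gria2, Gria4 and Grik1 turned positive without sham day 1 replicate 1. Grik3 pointed the other way, with 14.1 and 27.8 CPM in sham day 1 against 9.25 to 14.96 CPM in sham day 14 (log2 fold change 0.79, 95% interval −0.0034 to 1.58, edgeR adjusted p = 0.146).

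Sham day 14 served as the baseline of the time course in the study, and TBI day 1 was therefore also set against it, although injury and day then cannot be told apart. By this comparison 8 of the 9 genes were lower and 0 higher, beside 21% of all genes lower and 25% higher, with Grik3 the exception (log2 fold change −0.17). The values were −1.57 for Gria1, −1.14 for Gria2, −0.80 for Gria3, −0.48 for Gria4, −0.64 for Grik1, −1.14 for Grik2, −1.89 for Grik4 and −1.03 for Grik5. In 7 of the 9, all but Grik1 and Grik3, every injured rat lay below every sham rat, beside 17.8% of all genes. For Grik5 this comparison and that of the sham groups gave nearly the same value, and they share the sham day 14 samples.

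Ordered by mean level, sham day 14 was highest in 8 of the 9 genes and TBI day 1 lowest in 7. The matching shares over all genes were not computed. Grik4 was the gene in which all 4 groups were separate, in the order sham day 14 (207 ± 8.96 CPM, mean ± SD over 4 rats, or 2 in sham day 1), TBI day 14 (170 ± 5.14 CPM), sham day 1 (127 ± 18.9 CPM) and TBI day 1 (55.9 ± 15.6 CPM). Grik5 formed a high pair, sham day 14 (505 ± 66.7 CPM) and TBI day 14 (431 ± 32.2 CPM), and a low pair, TBI day 1 (248 ± 56.4 CPM) and sham day 1 (236 ± 35.6 CPM), with overlap within each pair and none between them. For Gria1, Gria3, Grik1 and Grik3, neighbours in the order overlapped throughout.

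Shares within a sample need no scaling between libraries. The share of Gria2 in all AMPA subunit counts averaged 53.4% ± 2.78 (SD, n = 2) for sham and 54.8% ± 0.90 (SD, n = 4) for TBI at day 1. At day 14 it averaged 55.2% ± 2.07 for sham and 51.1% ± 1.25 for TBI (SD, n = 4 each). The day 14 difference was −4.12 percentage points, with 1 sham rat, at 52.3%, inside the injured range of 49.7 to 52.6% (exact two-sided permutation p = 0.0571, Benjamini-Hochberg adjusted p = 0.386). None of the 9 share tests passed. With 2 sham rats at day 1 the smallest p possible is 0.133, and with 4 against 4 it is 0.0286.

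Grik4 and Grik5 together made up 74.9 and 84.2% of kainate subunit counts in the sham rats and 80.2 to 85.5% in the injured rats of day 1. At day 14 the shares were 84.7 to 87.0% for sham and 86.5 to 87.5% for TBI, so the sham range overlapped that of the injured rats of day 1. Within that total the split between them shifted. Grik4 held 8.54 to 22.6% of kainate counts in TBI day 1, below every other sample. The sham rats of day 1 were at 25.5 and 29.9%, those of day 14 at 23.6 to 28.8%, and the injured rats of day 14 at 23.1 to 26.2%. Grik5 held 62.9 to 73.8% of kainate counts in the injured and 44.9 and 58.7% in the sham rats of day 1. The log2 ratio of Grik4 to Grik5 counts was −2.17 ± 0.69 in TBI day 1 (SD, n = 4), with its highest value level with the lowest of the other samples at −1.48.

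For AMPA subunits, Gria1 held 8.33 to 20.7% of counts after injury at day 1, below the sham rats at 21.4 and 23.5%, while Gria3 held 19.5 to 29.7% against 17.3 and 21.6%. Kainate subunits made up 16.4 to 32.4% of the 9 genes' counts in TBI day 1, a wide range with replicate 1 on top. All day 14 samples lay between 22.5 and 25.6%. TBI day 1 replicate 1 combined the lowest Gria1, Gria2, Gria4 and Grik4 of its group with the highest Grik1, Grik3 and Grik5. It also had the lowest summed neuron markers of all 14 libraries, at 4743 CPM. Its oligodendrocyte markers summed to 15097 CPM against 3799 to 8426 CPM in the other TBI day 1 rats, and its endothelial markers to 314 CPM against 177 to 219 CPM. The part of these in its subunit values was not tested.

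**Figure D3:**
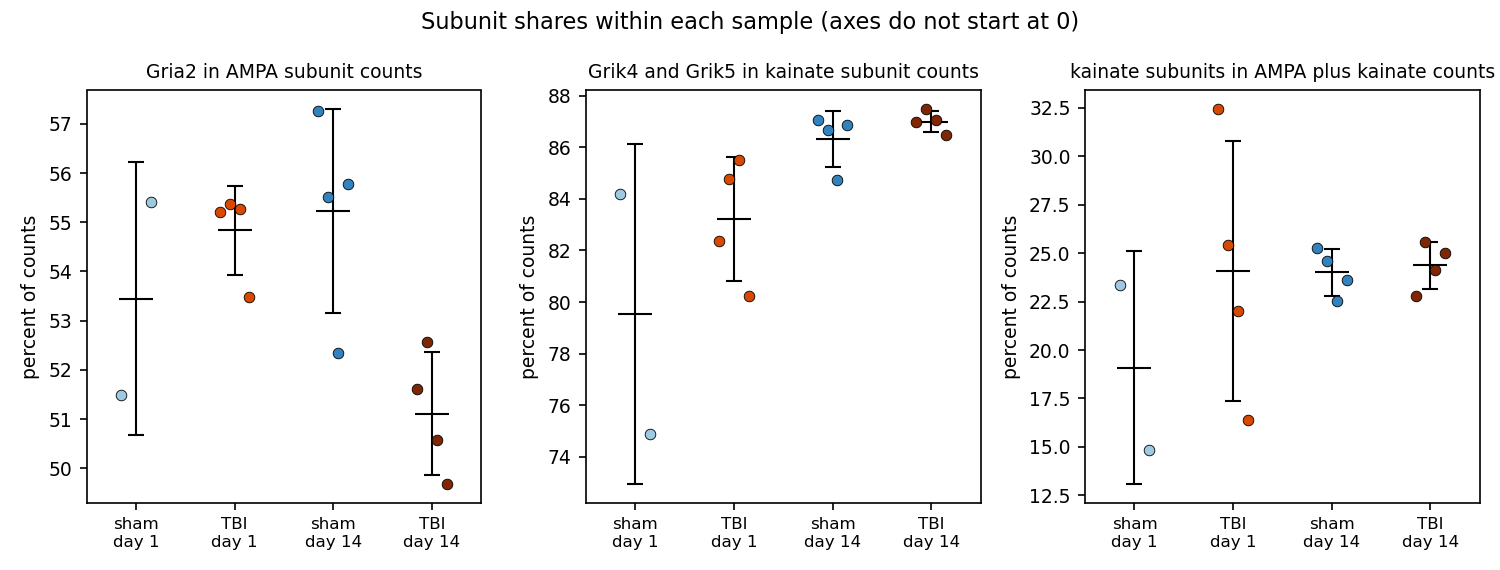
Percent of counts (vertical axes, not starting at 0) held by Gria2 among AMPA subunits, by Grik4 plus Grik5 among kainate subunits and by kainate subunits among all 9 genes, in 4 groups of rats. Points are rats, long bars means and whiskers SD. The widest spread is in the kainate share at day 1, 16.4 to 32.4% among injured rats.

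The 9 genes varied together only in part. Over the 14 samples, the Pearson correlation of log2 CPM between pairs of them ran from −0.04 to 0.95 with a median of 0.69 (36 pairs), group means included. After subtraction of the group means it ran from −0.77 between Gria1 and Grik5 to 0.81 between Gria1 and Gria2, with a median of 0.20. The pairs share libraries and depth, and the values are descriptions. Among the other genes, the most similar to Gria1 included Epha4 (r = 0.99, n = 14), to Gria2 Cdh9 and Lrp1b (both 0.98), to Gria3 Lig4 (0.98) and Exoc2 (0.97) and to Gria4 Slc6a17 (0.96) and Cadm1 (0.95). For Grik1 they were Slc6a7 (0.91) and Ero1lb (0.90), for Grik2 Mycbp2 and Herc2 (both 0.98), for Grik3 Magi1 (0.92) and Zfp949 (0.90), for Grik4 Ndrg4 and Cacna2d3 (both 0.98) and for Grik5 Entpd3 and Sun1 (both 0.99).

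Genes that act with these receptors were read from lists of 33 genes, of which 30 were in the table and tested (Shisa9, Gsg1l and Frrs1l were not in it). At TBI day 1 against sham day 1, 11 fell, 0 rose and 19 did not pass, beside the 7.93% of all genes that fell and 11.2% that rose. The median log2 fold change was −0.65, and 27 of 30 values were negative. At day 14, 0 of 30 passed by edgeR, limma-voom or DESeq2, 1 had an unadjusted p under 0.05 in edgeR, and the median was −0.12. With 1 sample left out, the day 1 count was not stable. Its highest was 17, without TBI day 1 replicate 4, beside 1467 of 12839 genes, and its lowest was below the 11 of the main fit. It was 0 with only the day 1 samples in the fit, beside 94 of 12720 genes.

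Extracellular organizers, mostly secreted proteins that cluster receptors at synapses, held the largest drops, with 5 of 8 lower. C1ql2 and C1ql3, released by mossy fibers and known to recruit kainate receptors there, had log2 fold changes of −2.20 (SE 0.57, edgeR adjusted p = 0.0157) and −2.11 (SE 0.41, edgeR adjusted p = 0.00289). Mean levels fell from 94.5 to 20.6 CPM for C1ql2 and from 130 to 30.2 CPM for C1ql3. Nptx1, a pentraxin that gathers AMPA receptors, stood at −1.37 (edgeR adjusted p = 0.0197), and the olfactomedins Olfm1 and Olfm3 at −0.93 and −1.12 (edgeR adjusted p = 0.0131 and 0.0203). None of these 5 passed without sham day 1 replicate 2, where C1ql2 was at −1.44, C1ql3 at −0.96 and Nptx1 at −0.82. The other members did not pass, with values of 0.83 for Olfm2 (mean 94.2 and 168 CPM, edgeR adjusted p = 0.0706), 0.33 for Nptx2 and −0.68 for Nptxr. At day 14, C1ql2 was at 0.15 and C1ql3 at 0.040.

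Of 11 AMPA receptor auxiliary subunits tested, 2 fell, the transmembrane regulators Cacng2 (log2 fold change −0.86, edgeR adjusted p = 0.0488) and Cacng3 (−0.95, edgeR adjusted p = 0.0143). With each sample left out in turn, the Cacng2 call remained in 3 of 14 fits and the Cacng3 call in 13. The Cacng3 log2 fold change ran from −1.18 to −0.68 over these fits. Of the kainate receptor auxiliary subunits, Neto1 fell (−1.08, SE 0.33, edgeR adjusted p = 0.0334) and Neto2 did not pass (−0.68, edgeR adjusted p = 0.141). The Neto1 call remained in 12 of 14 fits with a sample left out, with values from −1.43 to −0.61 over the 14. Among trafficking and scaffold partners, 1 of 6 fell, Grip1 (−0.66, edgeR adjusted p = 0.0276, but −0.15 without sham day 1 replicate 2), a PDZ scaffold of GluA2. The others were Nsf at −0.84 (edgeR adjusted p = 0.0513), Dlg1 at −0.34, Gripap1 at −0.23, Pick1 at −0.22 and Grip2 at 0.040.

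Adarb1 encodes the enzyme that edits the Gria2 transcript at the site governing calcium permeability. It fell from 261 to 162 CPM (log2 fold change −0.69, SE 0.12, edgeR adjusted p = 0.00179), and it stayed called whichever of the 14 samples was left out. Adar, the other editing enzyme listed, stood at −0.23 (edgeR adjusted p = 0.309). Editing itself cannot be read from counts per gene. Grid1, which encodes a delta receptor, a relative of the AMPA and kainate subunits that organizes synapses, fell by 0.62 on the log2 scale (edgeR adjusted p = 0.0205). Its call remained in 13 of the 14 fits with a sample left out, with log2 fold changes from −0.73 to −0.49 over the 14. With libraries scaled to the neuron markers, 2 of the 30 genes fell, C1ql2 and C1ql3, and 2 rose, beside 93 of 12875 genes lower and 3901 higher. Grip1 (0.12), Adarb1 (0.038) and Grid1 (0.059) were then above 0 but at −0.57, −0.65 and −0.63 relative to the median of all genes on that scale, and all 11 genes called before lay below it. Here too, taking off the median removes the common shift, so these values are not a separate check.

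**Figure D4:**
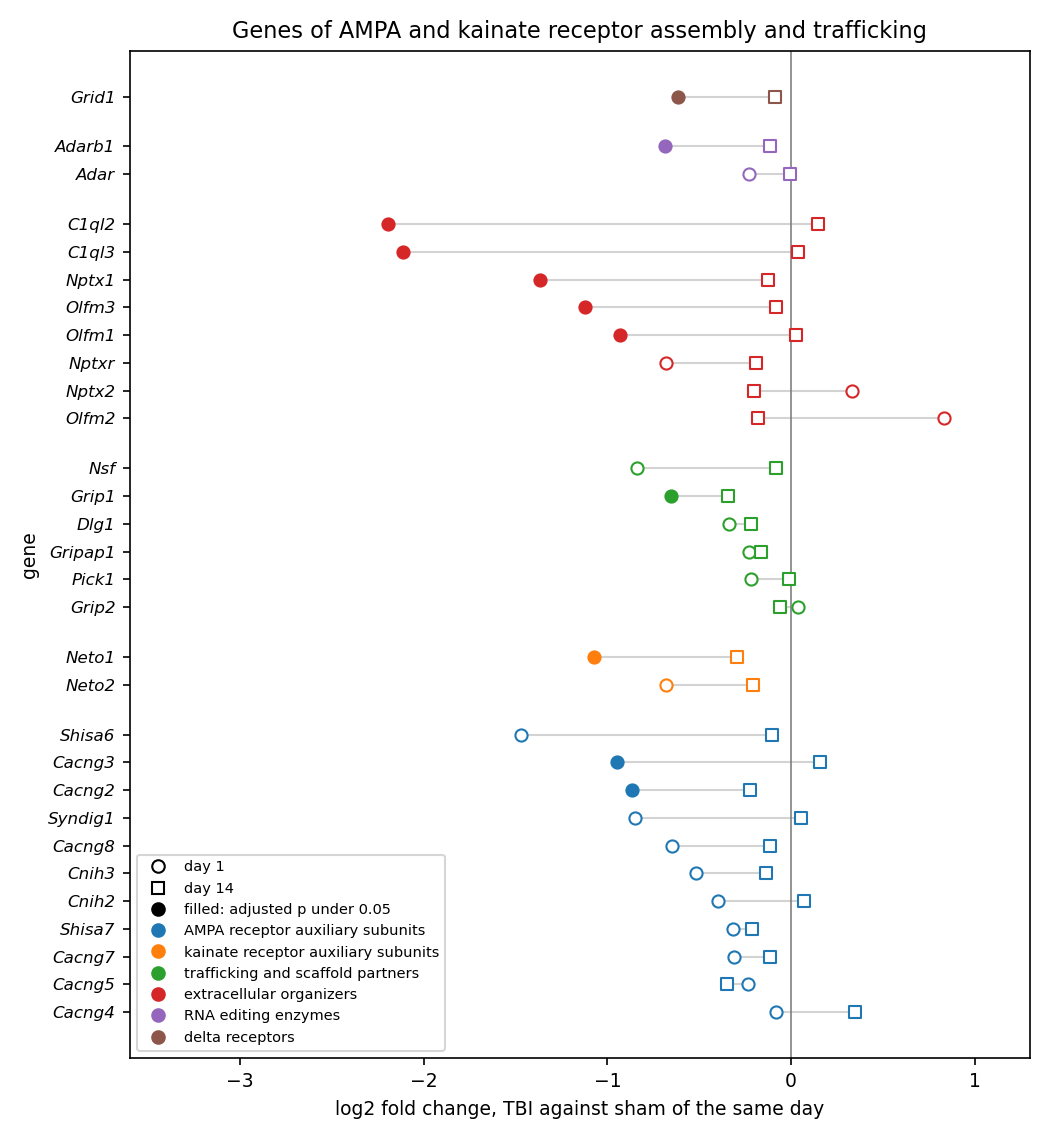
Log2 fold changes (horizontal axis) of 30 genes of AMPA and kainate receptor assembly and trafficking (vertical axis, colored by list) for TBI against sham at day 1 (circles) and day 14 (squares), filled where the adjusted p is under 0.05. At day 1, 11 circles are filled, led by C1ql2 and C1ql3, and no square is filled. Scaled to the neuron markers, C1ql2 and C1ql3 are the 2 called lower at day 1, beside 93 of 12875 genes.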

How the data were processed

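The authors aligned single-end reads of stranded, polyadenylated RNA libraries with STAR 2.4.2a (rat build rn5) and assigned them to UCSC genes with featureCounts 1.5.0, and the deposited counts are whole numbers without normalization. The strand setting of the counting is not given in the sources used here. Groups came from the labels, which give no batch. The study mentions a correction for batch, but with no batch named none could be fitted, and in comparisons between days batch and day cannot be told apart. The study's methods give fewer sham rats at day 14 than its results and labels, and all labelled samples were used. The members and gene lists were chosen with earlier results of these data known.

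The main model was edgeR's quasi-likelihood fit (edgeR 4.0.16, R 4.3.3) of 4 group means to all 14 samples, after filterByExpr by group and TMM scaling, with two-sided tests and Benjamini-Hochberg adjustment over 12875 genes, threshold 0.05. CPM were computed from TMM library sizes, and log2 CPM with a prior count of 2. Shares were compared by exact permutation tests (scipy 1.17.1), adjusted over 9 tests. Replicates of a group differed beyond counting noise (chi-squared per degree of freedom 13.3 to 171 over 19 pairs), so tests rest on the spread between rats. The edgeR, limma-voom and DESeq2 fits were checked on simulated counts for TBI against sham at day 1 and at day 14. The permutation test was checked on fixed sets of values.

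All 9 subunit genes are named. Of the accessory lists, those called at either day are named, with every gene of lists of up to 6, and for each subunit the 2 genes with the highest correlation. By these rules 2 further genes would be named that are not reported here, 1 of them left out of the accessory counts. The marker lists are described by their sums and counts. Alternatives were limma-voom 3.58.1 (the study's test), DESeq2 1.42.0, median-of-ratios factors, scaling to neuron markers, other filters, a fit on only the groups compared, the replicate number as a block, a stricter threshold of 0.01, a choroid plexus score as covariate, all 6 sham samples as baseline and leaving out each sample. Where 1 sham day 1 sample was left, its spread was taken from the other groups. H3K4me3 peaks were not used, because no rn5 annotation was at hand.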

Additional observations from a re-analysis of the deposited data

Results flagged for a closer look

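In groups of 4, a rat was marked where its gap to the nearest other rat exceeded 0.829 of the group's range (Dixon's 95% limit). Gap and range were taken on log2 CPM for genes and on percent for shares, whereas gene levels are printed here as CPM. Of 36 groups tested, 5 were marked, and chance alone marks about 5% of groups. In sham day 14, Gria2 in replicate 3 (1308 CPM) stood below the other rats, which were at 1476 to 1497 CPM, with a gap of 0.895 of the range. Grik5 in the same rat (406 CPM) stood below 525 to 545 CPM, with a gap of 0.873. Its share of Grik4 and Grik5 in kainate counts, 84.7%, was also lowest, with a gap of 0.834. In TBI day 14, Grik4 in replicate 1 (178 CPM) stood above 167 to 168 CPM, with a gap of 0.867. In TBI day 1, the share of Gria2 in AMPA counts in replicate 4 (53.5%) stood below the others, with a gap of 0.909.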

How the results depend on the processing

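For TBI day 1 against sham day 1, the 5 members called lower became 0 when scaled to neuron markers, 1 with only the groups compared, 8 with all 6 sham samples as baseline, 1 at an adjusted p under 0.01 and 1 to 7 when each sample was left out. They were 4 by limma-voom, 6 by DESeq2, and 4 to 5 under the other filters and factors. Over all genes, 1021 of 12875 were called lower in the main fit and 93 when scaled to neuron markers. The counts were 94 of 12720 with only the groups compared and 2032 of 12573 with all 6 sham samples. At day 14 the count of 0 became 1 with only the groups compared. For the difference of the effects, 0 became 1 by DESeq2, and 0 to 1 with a sample left out. Between the sham groups, 3 became 7 when scaled to neuron markers, 1 with the choroid plexus score as covariate, 1 without the 3 libraries high in choroid plexus markers (chosen after seeing the data), 1 at an adjusted p under 0.01, and 1 to 3 with a sample left out. The 8 lower members in TBI day 1 against sham day 14 stayed 6 to 8. For accessory genes at day 1, 11 lower became 2 when scaled to neuron markers, 0 with only the groups compared, 17 with all 6 sham samples, 2 at an adjusted p under 0.01 and 1 to 17 with a sample left out, and 0 higher became 1 by DESeq2, 2 by neuron scaling, 1 with all 6 sham samples and 0 to 1 with a sample left out. At day 14, 1 accessory gene was lower with only the groups compared. The cause was not tested.

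Scaling to neuron markers turned the sign, at day 1, of Gria3 (0.22), Gria4 (0.30), Grik1 (0.37), Grik2 (0.19), Grip1 (0.12), Adarb1 (0.038) and Grid1 (0.059), at day 14 of Gria1 (0.13) and Grik3 (0.048), in the difference of the effects of Gria2 (0.14), Gria3 (0.22), Gria4 (0.33), Grik1 (0.60) and Grik2 (0.27), and of Grik3 (0.022) in TBI day 1 against sham day 14. It moved the median of all genes by 0.70 at day 1, 0.21 at day 14, 0.49 in the difference and 0.053 against sham day 14, and 8, 9, 7 and 9 of the 9 members lay below that median. Setting members against that median removes the common shift, so these counts are not a separate check. The scaling raised the share of higher calls among all calls from 58.5% to 97.7% at day 1, from 91.8% to 99.5% at day 14 and from 60.8% to 84.4% in the difference, and lowered it from 58.8% to 2.74% between the sham groups. With only the groups compared, the split was 85.6% at day 1 and 81.5% at day 14.

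Other settings turned signs of genes that were not called in the main comparison. The choroid plexus score gave 0.13 for Gria1 and 0.073 for Grik3 at day 14, and all 6 sham samples gave −0.74 for Grik5 at day 1, then called (edgeR adjusted p = 0.0315), and 0.018 for Gria1 and 0.055 for Grik5 at day 14. Without the 3 libraries, Gria1 was 0.059 and Grik3 0.030 at day 14, and between the sham groups Gria1 was 0.087, Gria2 0.059, Gria4 0.10 and Grik1 0.048. Grik1 in the difference was 0.013 with at least 10 counts in every sample. With a sample left out, signs turned for Gria1 (−0.93 to 0.081), Gria2 (−0.93 to 0.052), Gria4 (−0.25 to 0.095) and Grik1 (−0.45 to 0.041) between the sham groups, Grik5 at day 1 (−0.079 to 0.23), Grik3 in TBI day 1 against sham day 14 (−0.46 to 0.064), and in the difference for Gria2 (−0.80 to 0.19), Gria4 (−0.33 to 0.018), Grik1 (−0.23 to 0.26) and Grik2 (−0.62 to 0.14).

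Shares with a sample left out gave, for Gria2 in AMPA counts, −0.57 to 3.35 percentage points at day 1 and −1.35 to 0.29 against sham day 14, for Grik4 and Grik5 in kainate counts −0.97 to 8.34 at day 1, and for kainate subunits −0.13 to 0.89 at day 14 and −2.73 to 2.62 against sham day 14. As a log2 ratio the last was −0.033.

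The replicate numbers did not pair the rats: over 18 same-numbered pairs, deviations from the group means correlated at −0.35 to 0.24, with 5 above 0.1, and 3 of 14 samples correlated best with their own number. With the replicate block, 4 members were lower at day 1. Gria3 (−0.54, edgeR adjusted p = 0.0672) and Grik2 (−0.52, edgeR adjusted p = 0.0629) lost their call, Gria4 (−0.45, edgeR adjusted p = 0.0441) gained one, and Grik1 in the difference was 0.016. Precision is limited by the 2 sham day 1 rats in the comparisons that use them, and by low counts for Grik1 and Grik3, with 112 to 602 reads per library for Grik3.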
